A study of Homo sapiens with 6 samples.

Results

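The BCL2 family members described here are 10 genes that set whether a cell releases cytochrome c from its mitochondria and dies: BCL2, MCL1 and BCL2L1 (BCL-XL), BAX and BAK1, and BCL2L11 (BIM), BBC3 (PUMA), PMAIP1 (NOXA), BID and BAD. They were taken by gene symbol from the 60671 genes of the count table, by a rule that uses no measured value, and all 10 were found once; the list itself was drawn up with earlier results of these data known. Expression was measured by RNA sequencing in 6 libraries of MM.1S, a human multiple myeloma cell line, 3 from wild-type cells (WT) and 3 from a CRISPR/Cas9 clone without CD38 (CD38 KO, named E9 in the titles). CD38 is a surface glycoprotein that hydrolyses NAD. Cells of both groups carried GFP and click beetle red luciferase from a lentivirus, received no drug, and were sorted as live cells, CD38-positive from the WT line and CD38-negative from the clone. The knockout is 1 clone, so loss of CD38 and other properties of that clone cannot be told apart, and p-values measure the spread between libraries prepared from the sorted cells.

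In healthy plasma cells and in myeloma, survival depends on a balance between these proteins. The guardians BCL2, MCL1 and BCL-XL hold back the effectors BAX and BAK1, which form pores in the outer mitochondrial membrane once they are set free or activated. BH3-only proteins (BIM, PUMA, NOXA, BID and BAD) bind the guardians in a groove, and some of them also activate the effectors directly; NOXA binds mainly MCL1, BAD binds BCL2 and BCL-XL, and BIM and PUMA bind all 3 guardians. Plasma cells rely strongly on MCL1, and venetoclax is a drug that occupies the groove of BCL2.

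Total counts ran from 61515519 to 72335496 per library. CD38 itself, the check of the labels, stood at 40.6 ± 1.90 CPM (the count scaled to library size; SD, n = 3) in WT and at 0.972 ± 0.322 CPM (SD, n = 3) in CD38 KO. Mitochondrially encoded transcripts made up 2.63% to 2.71% of counts in WT and 6.83% to 7.30% in CD38 KO, and every call on the 10 members was the same when these genes were left out of the fit. The labels call the cells B lymphoblasts. All 8 plasma cell markers were above 1 CPM, summing to 7139 to 7145 CPM in WT and 9088 to 9121 CPM in CD38 KO. Of 6 mature B cell markers, 5 stayed under 1 CPM in every library, the exception being CD79B, and the list summed to 27.04 to 27.3 CPM in WT and 22.1 to 23.3 CPM in CD38 KO. T and NK cell markers summed to 1.43 to 1.57 CPM in WT and 5.31 to 5.67 CPM in CD38 KO, mostly from CD3E, while CD3D had at most 1 count in a library. Myeloid markers summed to 0.883 to 1.39 CPM and stromal and epithelial markers to 5.42 to 8.35 CPM over all libraries.

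Start-site sequences are shown for the 4 members that were lower in CD38 KO, because all 4 hold the same short motif (chosen after the motifs were searched), and for BCL2L11, a known target of forkhead factors. Each runs from 250 bases before to 50 bases after the RefSeq start site (build GRCh38.p14), 5′ to 3′ on the strand of the gene. Capitals mark TGACG, the core of the cAMP response element bound by CREB and ATF proteins, on either strand (CGTCA on the other), and in BCL2L11 the forkhead site GTAAACA. The windows are chr18:63319720-63320019 (minus strand) for BCL2, chr18:59899746-59900045 (plus) for PMAIP1, chr19:48954625-48954924 (plus) for BAX, chr11:64284616-64284915 (minus) for BAD and chr2:111120664-111120963 (plus) for BCL2L11.
BCL2: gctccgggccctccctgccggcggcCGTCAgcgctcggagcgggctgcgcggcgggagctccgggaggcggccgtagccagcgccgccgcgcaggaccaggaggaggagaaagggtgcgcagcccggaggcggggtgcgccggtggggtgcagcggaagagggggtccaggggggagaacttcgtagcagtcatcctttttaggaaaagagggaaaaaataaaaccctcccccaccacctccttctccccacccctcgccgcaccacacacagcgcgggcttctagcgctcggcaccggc
PMAIP1: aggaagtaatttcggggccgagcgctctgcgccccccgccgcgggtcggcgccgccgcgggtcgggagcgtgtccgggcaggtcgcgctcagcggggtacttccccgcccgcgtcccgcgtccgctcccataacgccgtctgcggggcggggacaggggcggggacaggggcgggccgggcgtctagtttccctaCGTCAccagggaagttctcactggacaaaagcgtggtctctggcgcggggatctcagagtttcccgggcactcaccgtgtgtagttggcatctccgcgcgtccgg
BAX: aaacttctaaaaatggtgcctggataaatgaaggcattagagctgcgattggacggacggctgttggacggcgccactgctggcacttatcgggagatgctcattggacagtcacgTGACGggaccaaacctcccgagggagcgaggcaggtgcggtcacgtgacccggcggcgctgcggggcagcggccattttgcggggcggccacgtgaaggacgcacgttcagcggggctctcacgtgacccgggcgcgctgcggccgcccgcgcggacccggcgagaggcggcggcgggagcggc
BAD: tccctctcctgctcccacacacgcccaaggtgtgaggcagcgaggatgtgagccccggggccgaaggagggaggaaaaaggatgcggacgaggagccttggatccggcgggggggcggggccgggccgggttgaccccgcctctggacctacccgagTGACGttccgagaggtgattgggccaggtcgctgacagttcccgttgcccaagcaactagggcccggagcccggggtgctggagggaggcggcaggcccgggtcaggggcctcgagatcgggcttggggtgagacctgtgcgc
BCL2L11: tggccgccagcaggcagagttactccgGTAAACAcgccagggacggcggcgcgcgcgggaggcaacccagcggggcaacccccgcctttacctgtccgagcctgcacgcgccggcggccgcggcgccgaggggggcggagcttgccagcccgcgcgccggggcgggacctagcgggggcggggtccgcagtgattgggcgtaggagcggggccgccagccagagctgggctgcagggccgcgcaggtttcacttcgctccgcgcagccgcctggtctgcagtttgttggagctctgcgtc

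The count table was fitted as a whole: 20120 genes were tested with edgeR's quasi-likelihood test, and a gene was called changed at a Benjamini-Hochberg adjusted p under 0.05. By that rule 44.4% of all tested genes were called, 22.8% higher and 21.6% lower in CD38 KO. All 10 BCL2 family members were tested and 7 were called, 3 higher (MCL1, BCL2L11 and BAK1) and 4 lower (BCL2, PMAIP1, BAX and BAD). BCL2L1, BBC3 and BID were not called. The median size of the members' log2 change was 0.22, against 0.32 over all genes tested. Of the 10, 4 (MCL1, BCL2, PMAIP1 and BCL2L11) lay above the median of all genes. The tested genes include scarcely expressed ones, whose estimates vary more, and were not matched to the members by level. CPM did not overlap between the groups for 8 of the 10, where 52.5% of all tested genes did not overlap. In bulk RNA, fewer cells with a transcript and less of it per cell cannot be told apart.

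**Figure D1:**
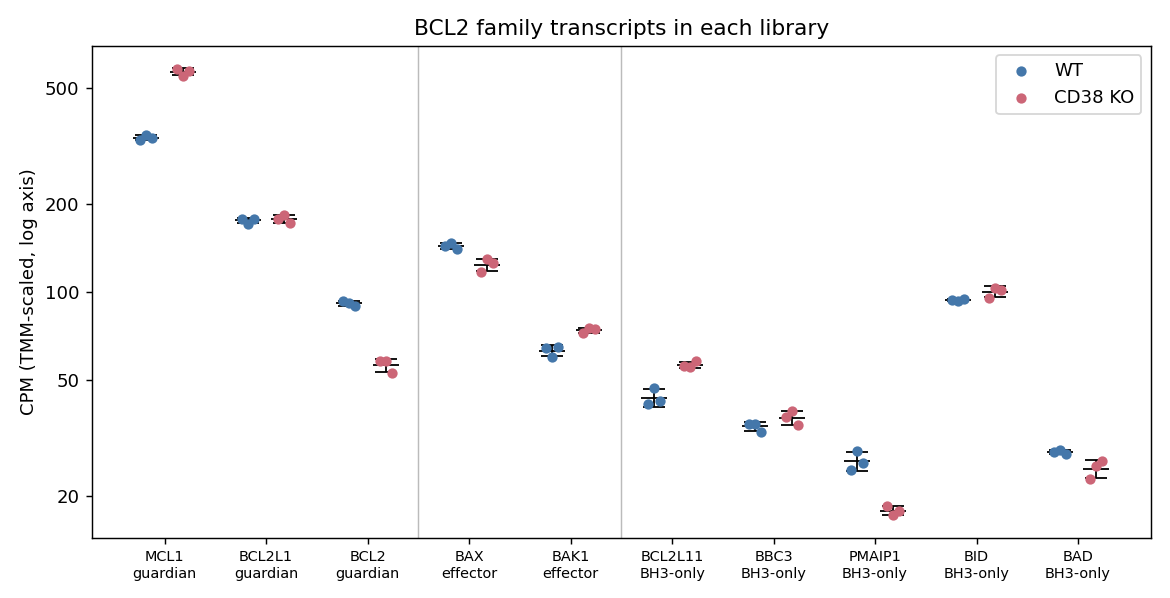
Level of each BCL2 family member in CPM (log axis) in the 3 WT and 3 CD38 KO libraries. Points are libraries, horizontal marks are means and bars are ± 1 SD; MCL1 lies at 330.5 to 344 CPM in WT and 551 to 583 CPM in CD38 KO, while BCL2 moves the other way and BCL2L1 lies at the same height in both.

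Among the guardians, MCL1 rose, BCL2 fell and BCL2L1 was not called, its groups overlapping. MCL1, a short-lived guardian that the proteasome turns over quickly, was at 330.5, 344 and 338 CPM in the WT libraries and at 583, 551 and 570.0 CPM in the CD38 KO libraries. Every CD38 KO library was above every WT library. The rise was 1.68-fold (log2 fold change, LFC, 0.75 ± 0.0375 SE, 95% interval 0.67 to 0.83, edgeR adjusted p = 7.44e-13), and in size it stood at the 79.3rd percentile of all tested genes.

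BCL2, the founding guardian and the target of venetoclax, was at 93.4, 91.4 and 89.3 CPM in WT and at 57.95, 57.8 and 52.9 CPM in CD38 KO. Here each CD38 KO library was below each WT library. The fall was 1.63-fold (LFC -0.70 ± 0.0507 SE, 95% interval -0.81 to -0.59, edgeR adjusted p = 2.88e-10).

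BCL2L1, whose long splice form BCL-XL protects cells and whose short form promotes death, was at 178, 171 and 178 CPM in WT and at 178, 184 and 172 CPM in CD38 KO. The groups overlapped, and the LFC was 0.02 (95% interval -0.07 to 0.10, edgeR adjusted p = 0.784). Its sign turned with library size alone as the scaling (-0.07, where the median of all genes shifts by -0.08) and also without replicate 2 of WT (-0.0050) or of CD38 KO (-0.0075), short of the threshold each time. The gene-level counts do not separate the splice forms, and 43% of the exonic bases of BCL2L1 lie opposite the antisense gene ABALON in GENCODE 29. ABALON had 92 to 141 counts per library and rose (LFC 0.57, edgeR adjusted p = 0.0289), and since no strand setting is given, reads of the shared stretch cannot be assigned.

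The effectors BAX and BAK1 moved in opposite directions. BAX, which stays in the cytosol until activated, was at 144, 147 and 140.3 CPM in WT and at 117, 129 and 125 CPM in CD38 KO. The groups did not overlap, with a LFC of -0.21 ± 0.0452 SE (edgeR adjusted p = 0.000540). BAK1, which sits in the outer mitochondrial membrane and is held mainly by MCL1 and BCL-XL, was at 64.4, 59.7 and 64.6 CPM in WT and at 72.3, 74.96 and 74.3 CPM in CD38 KO. Again no library crossed into the other group, and BAK1 rose by a LFC of 0.23 ± 0.0502 SE (edgeR adjusted p = 0.000667). A processed pseudogene, BAK1P1, had 88 to 173 counts per library against 3953 to 4766 for BAK1.

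Of the BH3-only members, BCL2L11 rose, PMAIP1 and BAD fell, and BBC3 and BID were not called. BCL2L11 encodes BIM, which binds every guardian and is a main killer of lymphoid cells deprived of growth factors or given glucocorticoids. It was at 41.2, 46.9 and 42.1 CPM in WT and at 55.5, 55.4 and 57.9 CPM in CD38 KO. No WT library reached the lowest CD38 KO library (LFC 0.38 ± 0.0578 SE, edgeR adjusted p = 1.59e-05). An opposite-strand transcript, MIR4435-2HG, overlaps 10.9% of its exonic bases and did not pass the test (LFC -0.03, edgeR adjusted p = 0.668). MIR4435-2HG had 3289 to 4305 counts per library against 2768 to 3584 for BCL2L11, and the part of shared reads in the BCL2L11 result was not tested.

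PMAIP1 encodes NOXA, the BH3-only partner that binds MCL1 and hastens its breakdown. Its level was 24.6, 28.5 and 25.9 CPM in WT against 18.4, 17.2 and 17.7 CPM in CD38 KO. With no overlap between the groups, PMAIP1 fell 1.48-fold (LFC -0.57 ± 0.0766 SE, 95% interval -0.73 to -0.41, edgeR adjusted p = 2.91e-06). After MCL1 and BCL2 this was the third largest change among the 10 members.

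BAD, which binds BCL2 and BCL-XL unless survival kinases phosphorylate it, was at 28.4, 28.7 and 27.8 CPM in WT and at 22.8, 25.3 and 26.2 CPM in CD38 KO. The groups did not overlap, but the call was close to the threshold (LFC -0.19 ± 0.0705 SE, edgeR adjusted p = 0.0322). It was lost without CD38 KO replicate 1 (LFC -0.13, edgeR adjusted p = 0.151) and without WT replicate 1 (0.0692), WT replicate 2 (0.0790) or WT replicate 3 (0.0660), within a range of adjusted p from 0.00316 to 0.151 over 16 alternatives. In GENCODE 29, 23.7% of the exonic bases of BAD lie opposite exons of GPR137, which fell as well (LFC -0.33, edgeR adjusted p = 2.70e-05), and the part of shared reads in the BAD result was not tested.

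BBC3 encodes PUMA, which binds all guardians. Its level was 35.4, 35.4 and 33.2 CPM in WT and 37.2, 39.1 and 34.97 CPM in CD38 KO. The groups overlapped, with a LFC of 0.10 and a 95% interval of -0.03 to 0.23 (edgeR adjusted p = 0.228).

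BID, which caspase-8 cleaves to link death receptors to mitochondria, was at 93.8, 93.4 and 94.9 CPM in WT and at 95.6, 103 and 102 CPM in CD38 KO. The CD38 KO libraries were all above the WT libraries, but the difference was not called (LFC 0.09, 95% interval -0.00103 to 0.188, edgeR adjusted p = 0.103). Without CD38 KO replicate 1, the lowest of its group, BID passed the threshold (LFC 0.13, edgeR adjusted p = 0.0361); its adjusted p lay between 0.0361 and 0.875 across alternatives.

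**Figure D2:**
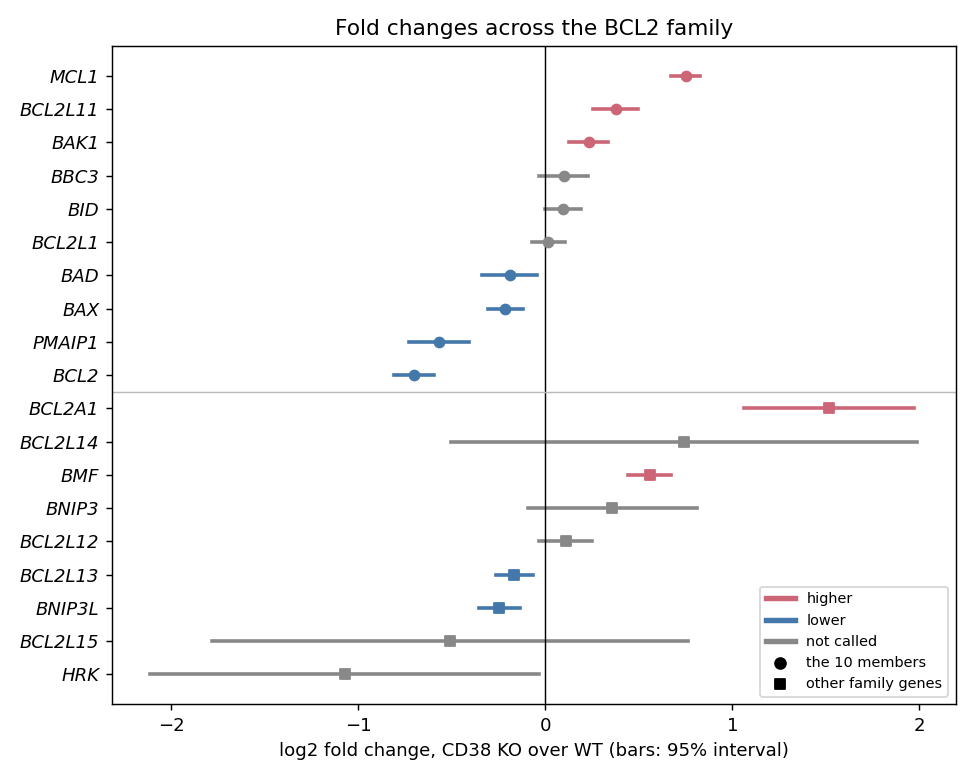
Log2 fold change (LFC), CD38 KO over WT, of the 10 members (circles) and of the 9 other tested BCL2 family genes (squares), with 95% intervals from the edgeR fit across 3 libraries per group. Red marks genes called higher, blue lower and grey not called; MCL1 (0.75) and BCL2 (-0.70) stand at opposite ends of the members, and the widest intervals belong to scarcely expressed genes such as BCL2L14 and BCL2L15.

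Ratios of counts between 2 members within a library need no scaling between libraries, so they were taken as a second view of the same counts. In log2 units the MCL1 to BCL2 ratio was 1.82, 1.91 and 1.92 in WT and 3.33, 3.25 and 3.43 in CD38 KO, a difference of 1.45. These are ratios of reads, not of molecules, since the transcripts differ in length. Length cancels in the difference between groups if both use the same transcript forms, which gene-level counts do not show. The MCL1 to BCL2L1 ratio differed by 0.73 and the BCL2L1 to BCL2 ratio by 0.72. Of the guardians, BCL2 transcripts therefore made up a smaller part in every CD38 KO library than in any WT library, and MCL1 a larger one.

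Among partners that bind each other, the PMAIP1 to MCL1 ratio was -3.75, -3.59 and -3.70 in WT and -4.98, -5.01 and -5.01 in CD38 KO, a difference of -1.32. BCL2L11 rose in CPM, yet its ratio to MCL1 differed by -0.37, while its ratio to BCL2 was higher by 1.08. The BAK1 to MCL1 ratio differed by -0.52 and the BAX to BAK1 ratio by -0.45. The BAX to BCL2 ratio differed by 0.49. For all 10 ratios computed the groups did not overlap. The pairs were chosen by hand, each holds a member called in the fit, and none holds BBC3, BID or BAD. Of single tested genes 52.5% did not overlap, and no share was computed over other gene pairs. The smallest p that an exact two-sided permutation test of 3 against 3 libraries can give is 0.1, so none is attached to these ratios, and they restate differences in the same counts as the fit.

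**Figure D3:**
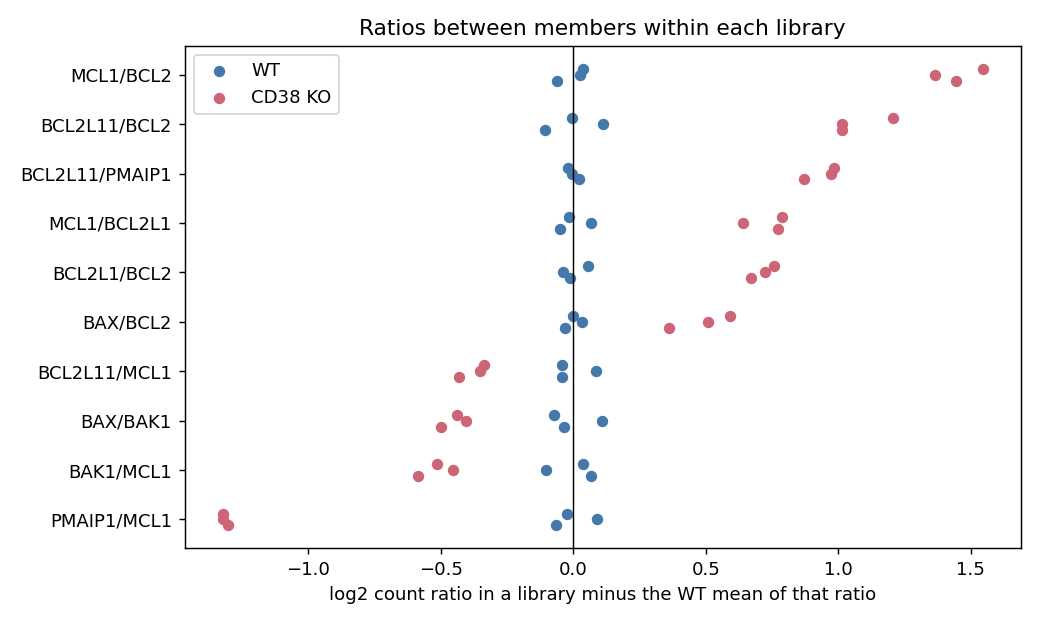
Log2 ratio of counts between pairs of members in each library, less the WT mean of that ratio, for 3 WT (blue) and 3 CD38 KO (red) libraries. The MCL1 to BCL2 ratio shifts furthest up, by 1.45, and the PMAIP1 to MCL1 ratio furthest down, at -1.32. No red point lies within the blue points of its row, in pairs chosen by hand that each hold a called member.

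Levels of different members were compared per kilobase of exon (CPM per kb, exon union of GENCODE 29). In WT the order was MCL1 at 77.2 ± 1.57, BAX at 55.5 ± 1.30, BCL2L1 at 53.02 ± 1.22, BAK1 at 28.4 ± 1.27 and BID at 21.1 ± 0.177 CPM per kb (SD, n = 3). BAD at 16.6, PMAIP1 at 11.8, BBC3 at 10.9, BCL2 at 7.76 and BCL2L11 at 6.52 CPM per kb followed. Only PMAIP1 and BBC3 overlapped among neighbours in this order. In CD38 KO, MCL1 led with 129.95 ± 3.67 CPM per kb, BCL2L1 (53.6) came before BAX (47.9), and BCL2 came last with 4.78 ± 0.246 CPM per kb (SD, n = 3). BCL2L11 at 8.45 CPM per kb stood above PMAIP1 at 7.95 CPM per kb there, the reverse of WT, and no neighbours overlapped. MCL1 was at the 96.2nd percentile of 13169 tested protein-coding genes in WT and at the 98.2nd in CD38 KO, and BCL2 at the 62.6th and the 52.2nd. The order depends on the length used: per kilobase of the longest coding transcript, BAX (106) was above MCL1 (85.9) in WT, while in CD38 KO MCL1 (144) was above BAX (91.2). On that scale BAX stayed above BCL2L1 in CD38 KO (68.1), BID was above BAK1 in both groups (37.7 against 28.4 in WT and 40.2 against 33.4 in CD38 KO), and BBC3 (18.9) was above PMAIP1 (13.5) in WT. BCL2L11 (10.8) above PMAIP1 (9.13) and BCL2 last (7.53) held in CD38 KO with either length.

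Of the 13 other genes of the family in the table, 9 were tested, and 2 rose and 2 fell. BCL2A1, a guardian induced by NF-kB, rose from 0.972 ± 0.179 to 2.78 ± 0.359 CPM (SD, n = 3; LFC 1.51, edgeR adjusted p = 6.47e-06), with 70, 77 and 53 counts in WT and 155, 187 and 172 in CD38 KO. Its level in CD38 KO, 2.55 CPM per kb, was below that of BCL2 (4.78 CPM per kb) and above those of the guardians BCL2L2 (0.0154) and BCL2L10 (0.0120), which were not tested. BMF, a BH3-only gene, rose from 37.1 ± 1.72 to 54.7 ± 0.718 CPM (SD, n = 3; LFC 0.56, edgeR adjusted p = 3.96e-08). BCL2L13 and BNIP3L, both receptors for the removal of mitochondria by autophagy, fell by 0.17 and 0.25 on the log2 scale (edgeR adjusted p = 0.00664 and 0.000586). BCL2L12, BNIP3, BCL2L14, BCL2L15 and HRK were not called, with LFCs of 0.11, 0.36, 0.74, -0.51 and -1.07. Leaving out single libraries moved BCL2L14 between 0.42 (without CD38 KO replicate 1) and 1.62 (without WT replicate 2), and BCL2L15 turned to 0.30 without WT replicate 2. HRK, a BH3-only gene, had 32, 16 and 37 counts in WT and 11, 18 and 7 in CD38 KO; it passed the threshold without WT replicate 2 (edgeR adjusted p = 0.0488) or without CD38 KO replicate 2 (0.0378).

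BIK, BOK, BCL2L2 and BCL2L10 were too scarce to test. BIK had 2 counts over the 3 WT libraries and 18 over the 3 CD38 KO libraries, of which CD38 KO replicate 1 had 0. The effector BOK had 3 and 2 counts and BCL2L10 4 and 3. BCL2L2 (BCL-W) had 1 and 12 counts, and 19.4% of its exonic bases are shared on the same strand with the read-through gene BCL2L2-PABPN1, which had 0 counts in every library. Reads that fit both genes may have been left out of both, so the level of BCL2L2 is uncertain.

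**Figure D4:**
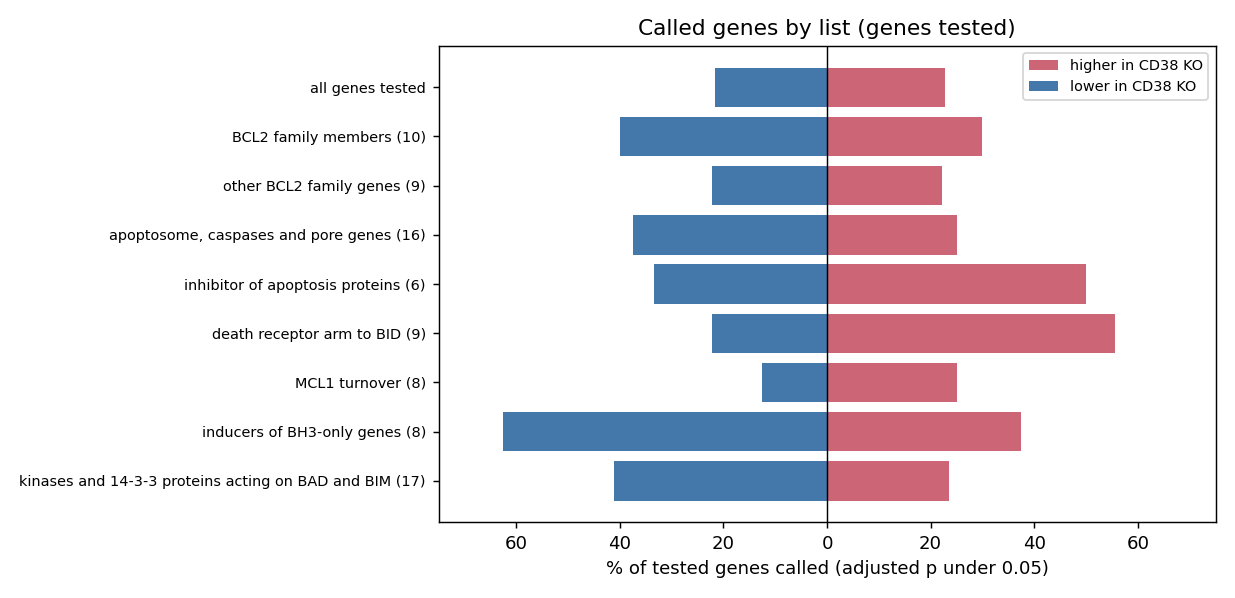
Share of tested genes called higher (red, to the right) or lower (blue, to the left) in CD38 KO for each gene list, with the number tested in brackets, and for all genes tested (22.8% and 21.6%). Each list holds calls in both directions, and the lists have only 6 to 17 tested genes.

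Genes that act before and after the family were described from lists chosen for their role. In the apoptosome, caspase and pore list, 4 of 16 tested genes rose and 6 fell, with a median LFC of 0.00, as over all genes. HTRA2, a mitochondrial protease that relieves caspase inhibition once released, fell from 74.2 ± 2.95 to 35.3 ± 0.588 CPM (SD, n = 3; LFC -1.07, edgeR adjusted p = 6.04e-13). AIFM1, an oxidoreductase of the intermembrane space, rose by a LFC of 0.61 and the outer membrane channel VDAC1 by 0.33. The caspase CASP6 fell by 0.60 on the log2 scale.

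Of 6 tested inhibitor of apoptosis genes, 3 rose and 2 fell (median 0.07), and 3 were called without WT replicate 3 or without CD38 KO replicate 3. BIRC5 (survivin), which also acts in mitosis, rose from 60.4 ± 3.29 to 164 ± 3.81 CPM (SD, n = 3; LFC 1.45, edgeR adjusted p = 9.55e-16). BIRC2 (cIAP1) rose by a LFC of 0.28. The calls of XIAP (0.30, edgeR adjusted p = 0.0155) and BIRC6 (-0.20, edgeR adjusted p = 0.0137) were each lost in some alternatives, XIAP without WT replicate 3 (adjusted p = 0.0621) or replicates 1 or 3 of CD38 KO (0.0746 and 0.0683) and with library size alone (0.0806), and BIRC6 without WT replicate 1 (0.0644) or replicates 2 or 3 of CD38 KO (0.0553 and 0.0503).

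Upstream of BID, 5 of 9 death receptor arm genes rose and 2 fell (median 0.14). The initiator caspases CASP10 and CASP8 rose by LFCs of 0.84 and 0.47, the TNF receptor TNFRSF1A rose by 0.63, and the death receptor FAS fell from 48.1 ± 0.367 to 28.7 ± 1.77 CPM (SD, n = 3; LFC -0.75, edgeR adjusted p = 2.02e-09). Of 8 genes of MCL1 turnover, 2 rose and 1 fell (median 0.11). The ubiquitin ligase MARCHF5 and the deubiquitinase USP13 rose by 0.41 and 0.51, and USP9X, a deubiquitinase that stabilises MCL1, fell by 0.29 on the log2 scale (edgeR adjusted p = 0.00235). TRIM17 was not called (LFC 0.90, edgeR adjusted p = 0.0874), but passed without CD38 KO replicate 3 (1.26, 0.0121).

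All 8 tested transcription factors known to act on BH3-only genes were called, 3 higher and 5 lower (median -0.14). Over all tested genes 44.4% were called. When a library was left out, 7 to 8 of these factors were called. JUN fell by 0.47 and E2F1 by 0.56 on the log2 scale. FOXO1, a forkhead factor that induces BCL2L11, rose from 7.39 ± 1.09 to 14.2 ± 1.22 CPM (SD, n = 3; LFC 0.94). FOXO3, a forkhead factor that also induces BCL2L11, fell from 320 ± 9.92 to 297 ± 10.6 CPM (SD, n = 3; LFC -0.11, edgeR adjusted p = 0.0329). Its call was lost without WT replicates 1 or 3 (edgeR adjusted p = 0.126 and 0.0873) or CD38 KO replicates 2 or 3 (0.0825 and 0.190), in a range from 0.000293 to 0.190 over the alternatives. ATF4, a factor of the integrated stress response that induces PMAIP1, rose by a LFC of 0.28. In the list of kinases and 14-3-3 proteins that act on BAD and BIM, 4 of 17 genes rose and 7 fell (median -0.08). PIM2, a survival kinase that phosphorylates BAD and is abundant in myeloma, rose from 5138 ± 85.8 to 6937 ± 80.2 CPM and PIM3 from 41.01 ± 0.436 to 76.3 ± 4.24 CPM, whereas PIM1 fell from 74.3 ± 0.803 to 30.2 ± 0.263 CPM (SD, n = 3; LFCs 0.43, 0.90 and -1.30). Of the 6 14-3-3 genes in it, YWHAE and YWHAG rose by LFCs of 0.43 and 0.28, and YWHAB, YWHAH, YWHAQ and YWHAZ fell by 0.23, 0.46, 0.18 and 0.45 on the log2 scale. FOXO3 and the 14-3-3 genes other than YWHAE were named after their values were seen.

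The members lie on 8 chromosomes, with BCL2 and PMAIP1, which both fell, on chromosome 18 and BAX and BBC3 on chromosome 19. In GENCODE 29 (build GRCh38), BCL2 lies at chromosome 18, 63123346 to 63320128 (minus strand), PMAIP1 at chromosome 18, 59899948 to 59904306 (plus strand) and MCL1 at chromosome 1, 150574551 to 150579738 (minus strand). The sources used here do not give the build the authors counted on, so positions serve only to find neighbours. A neighbour is a gene with any part within 1 Mb of either end of the member, so some start sites lie farther away. Of 10 tested protein-coding genes within 1 Mb of BCL2, 5 fell and the other 5 were not called (median LFC -0.39), although KDSR and VPS4B, the nearest 2 by start site, were not called (0.09 and -0.05). Around PMAIP1 only 4 genes were tested, 1 higher and 1 lower. Over chromosome 18 as a whole 58 of 189 tested protein-coding genes fell and 44 rose, with a median of -0.05. Of the 54 tested neighbours of MCL1, 23 fell and 7 rose (median -0.12). Over chromosome 1, 446 of 1357 tested protein-coding genes fell and 329 rose (median -0.05). Around BCL2L1, 9 of 14 rose, TPX2 among them with 1.11, and the other 5 were not called (median 0.24), while BCL2L1 was not called. Over chromosome 20, 112 of 345 rose and 79 fell (median 0.03). BMF rose on a stretch of chromosome 15 where 21 of 30 tested neighbours fell (median -0.64). Over chromosome 15, 166 of 424 fell and 144 rose (median -0.0009). The nearest 2 neighbours of BCL2 and TPX2 were named after their values were seen.

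**Figure D5:**
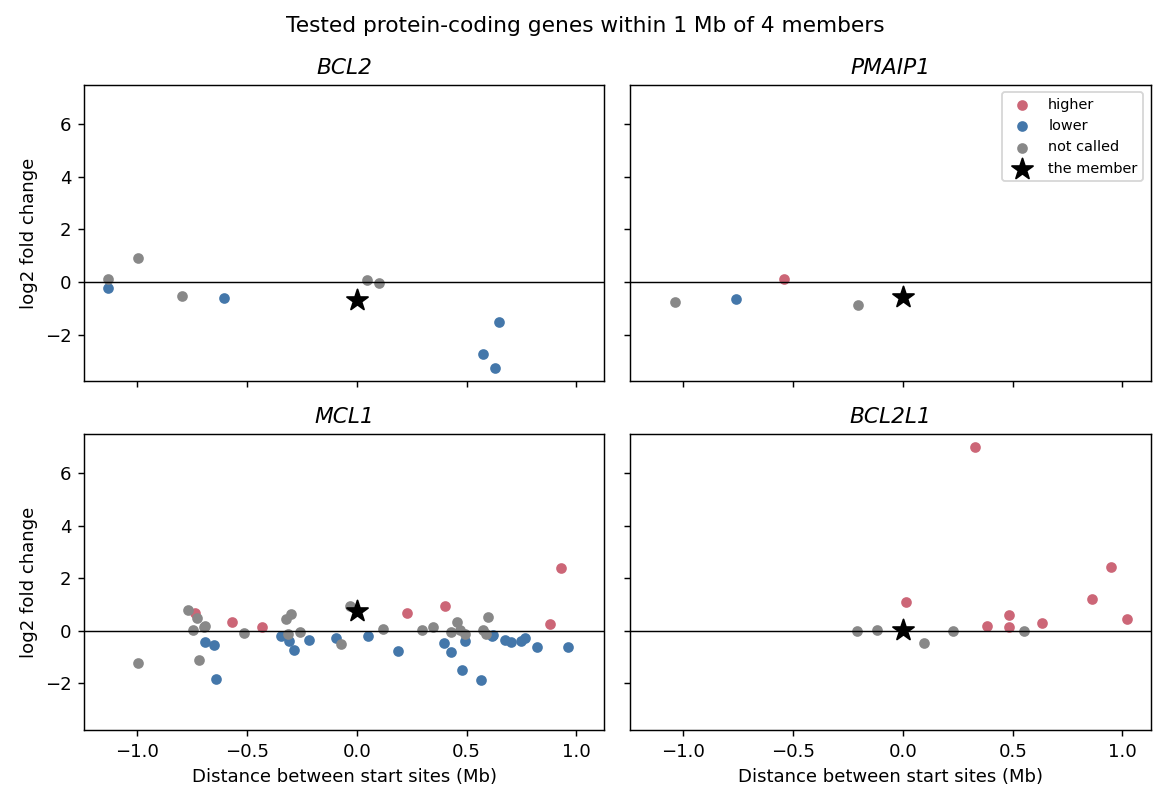
Log2 fold change of tested protein-coding genes with any part within 1 Mb of either end of BCL2, PMAIP1, MCL1 and BCL2L1, against the distance between start sites in Mb, which can exceed 1 Mb; a star marks the member, red points are called higher, blue lower and grey not called. The neighbours of BCL2 called at the threshold are all lower, those of BCL2L1 all higher, and those of MCL1 are 23 lower and 7 higher, with MCL1 itself at 0.75.

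Promoter windows were matched by symbol for 9 of the 10 members and for 9 other family genes. The member without a window was MCL1, so no motif was searched there. The core TGACG was present in BCL2, PMAIP1, BAX and BAD, the 4 members that fell, starting at -225, -55, -134 and -93 from the RefSeq start site, and in none of the other 5 member windows. Among the other family windows it was in BCL2L12, BCL2L14 and HRK, which were not called. It was absent from BCL2L13, which fell, and from BCL2A1 and BMF, which rose. A link between the motif and the calls was not tested. Over all 35116 promoters 24.6% hold it. Among tested protein-coding genes with a window, it was present in 32.3% of those called lower, 34.4% of those called higher and 34% of those not called. The full element TGACGTCA, held by 1.85% of promoters, was in none of the 18 family windows.

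Other motifs were searched on both strands in the same way. The E-box CACGTG, in 7.26% of all promoters, stood at 4 places in BAX (-138, -93, -45 and -14), the first overlapping its TGACG, and at 1 place in each of BBC3 (-232), BID (-47) and BNIP3 (-134). The forkhead site GTAAACA, in 3.42% of promoters, was found in BCL2L11 alone among the 18 windows, at -223. The STAT site TTCNNNGAA (7.66%) was found in BCL2A1 (-168), BCL2L14 (-85) and BCL2L15 (20), and the GC box GGGCGG (45%) in 11 windows. A match describes these letters only, and a window without one says nothing about the factor.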

How the data were processed

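RNA of 6 libraries was analysed from the raw counts the authors deposited for every gene, 1 column per library. STAR 2.7.9a, Partek and DESeq2 appear in the submitters' processing notes with no role stated; build, annotation, counter and strandedness were not given in the sources used here. Per the labels' protocols, a SMARTer low-input kit was used on 10 ng of RNA. Among 60871 lines, 200 duplicated an Ensembl identifier and its counts and were dropped.

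The groups were compared with edgeR 4.0.16 in R 4.3.3 (TMM factors, filterByExpr, robust quasi-likelihood fit, no covariate), with Benjamini-Hochberg adjustment over all 20120 genes. The SE is the log2 fold change divided by the root of the F statistic. CPM were scaled with TMM factors. Positions, lengths and overlaps came from GENCODE 29 by Ensembl identifier, promoters from RefSeq. Libraries of 1 group differed by more than sampling noise (chi-square over degrees of freedom from 6.27 up). The fit was tested on simulated data, where 7.69% of 169 calls were false. It recovered 58% of genes changed 1.25-fold, 64% at 1.5-fold and 90% at 2-fold. Far fewer genes were called there than the 8934 called in the data.

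The members, lists and motifs were chosen with earlier results of these data known. Named genes were the members, CD38, every tested gene of the other BCL2 family, and up to 4 genes with the smallest adjusted p of each further list. Some items of the lists and motifs are not reported here and were left out of the counts per list. No set test was run. The 16 alternatives were other scalings (RLE, upper quartile, library size alone), other filters, DESeq2 1.42.0, limma-voom (limma 3.58.1), a replicate block, protein-coding genes only, no mitochondrially encoded genes, and each library left out.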

Additional observations from a re-analysis of the deposited data

How the results depend on the processing

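BCL2, MCL1, BCL2L11, BAX, BAK1 and PMAIP1 kept their direction and their call in all 16 alternatives, with log2 fold changes of -0.78 to -0.65, 0.67 to 0.77, 0.29 to 0.43, -0.30 to -0.17, 0.15 to 0.25 and -0.65 to -0.51. BCL2L1 and BBC3 were called in none (-0.07 to 0.05 and 0.01 to 0.15). The count of members called was 6 to 7. BAD lost its call when a library was left out, at -0.19, -0.18, -0.20 and -0.13 without WT replicates 1, 2 and 3 and CD38 KO replicate 1, and BID gained one, at 0.13, without CD38 KO replicate 1; the cause was not tested. Over the libraries left out, BAD ranged from -0.22 to -0.13 and BID from 0.0712 to 0.129. The inhibitor of apoptosis list had 3 to 5 genes called over the libraries left out. Scaled by library size alone, 3632 genes of the whole table were higher and 5570 lower, against 4592 and 4342, and the median of all genes shifted by -0.08. The replicate block changed no call on a member, with 7 members and 8918 genes called. Deviations of same-numbered libraries correlated at 0.03, -0.01 and -0.02 over all tested genes. A value over all genes does not tell whether single genes share a replicate effect. For BIRC6 the edgeR adjusted p was 0.000666 with the block and 0.0137 without it. Of 636 further checks of single genes, counted over the alternatives, 622 gave the same call. At this depth 3 counts, the most that a count of 0 allows, equal 0.0405 to 0.0504 CPM, for counting error only; this limits BIK, BOK, BCL2L2 and BCL2L10, not the 10 members.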
